A study of Mus musculus with 6 samples.

Results

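Genes of cholesterol and fatty acid synthesis were followed in the striatum of mice that model Huntington's disease. A list of 47 genes was taken, 23 of the sterol branch and 24 of the fatty acid branch, and every probe set whose platform annotation names exactly 1 of them was used. The arrays measured 37 of the 47 genes, 18 in the sterol branch and 19 in the fatty acid branch, through 51 of the 12422 probe sets, while 8251 genes were measured in all. Pmvk, Acat2, Srebf2, Soat1 and Cyp46a1 of the sterol branch and Acaca, Fads2, Acsl1, Acsl3 and Acsl6 of the fatty acid branch lacked a probe set naming only them and were not measured here. Total RNA from the striatum of 6 mice was hybridised to Affymetrix arrays, 1 array per mouse. The first group held 3 Hdh4/Q80 mice (replicates 7, 8 and 9), described as transgenic in the labels, whose huntingtin gene (Htt, formerly Hdh) carries an expanded glutamine-coding repeat. The second held 3 wild-type littermates (replicates 4, 5 and 6). All were female C57BL/6 mice aged 12 months, and whether the mutants carry 1 or 2 mutant copies is not stated. Values for single mice are log2 expression and follow the replicate numbers within each group, and differences are Hdh4/Q80 minus wild type on the log2 scale.

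Cholesterol does not cross from blood into the brain, so brain cells make their own from acetyl-CoA through mevalonate, isoprenoids, squalene and lanosterol, and fatty acid synthesis draws on the same acetyl-CoA. The transcription factors SREBP, encoded by Srebf1 and Srebf2, leave the endoplasmic reticulum when sterols are scarce and switch on most enzymes of both branches, and the INSIG proteins hold them back when sterols are plentiful. In the adult brain the lipids are made in large part by glia, and myelin is their largest store. Reduced sterol synthesis has been described in brains of Huntington's disease models, which makes these genes a natural question for a comparison of mutant and wild-type striatum.

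The arrays were even in overall level, with medians between 7.11 and 7.13 and lower quartiles between 5.79 and 5.86. Hdh4/Q80 replicate 8 stood apart, with a mean correlation of 0.992 with the other arrays across probe sets, against 0.995 to 0.997 for the other mice, and with the largest SD of deviations from the gene means (0.170, against 0.0684 to 0.118). Markers of striatal spiny neurons were present, among them the enkephalin precursor Penk at 13.04 ± 0.0966 in Hdh4/Q80 and 13.02 ± 0.111 in wild-type mice and the dopamine receptor Drd2 at 9.69 ± 0.180 and 9.75 ± 0.148 (mean log2 ± SD, n = 3 mice each). Ttr, a choroid plexus transcript, was high in Hdh4/Q80 replicates 8 and 9 (10.59 and 11.24) and wild-type replicate 6 (10.26), against 8.32 to 8.48 in the other mice, and its part in the lipid gene values was not tested. Without detection calls, absence could not be called for any of them. Among the member probe sets, 8 lay below the lower quartile on all 6 arrays and are called dim here. The array scale compresses differences of dim probe sets, which makes their intervals weak limits. In whole tissue, fewer cells of a type and less RNA per cell cannot be told apart.

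No sterol or fatty acid gene separated Hdh4/Q80 mice from wild-type littermates after correction for multiple testing. With limma and Benjamini-Hochberg adjustment over the whole table, 0 of the 51 member probe sets had an adjusted p below 0.05, as had 0% of all probe sets, and the smallest among members was 0.857. Taking limma's p without adjustment, 1 member probe set lay below 0.05, that of Idi1, which is 1.96% of them, against 5.1% of all probe sets. It was lower in Hdh4/Q80 (2.21% of all probe sets), and 0 members were higher (2.9% of all). The groups did not overlap for the same probe set alone, again 1.96%, against 11.7% of all probe sets. All mutants lay below all wild types for that 1 (5.05% of all) and above them for 0 (6.67% of all). The members' shares were thus no larger than those of the whole table. Differences ran from -0.36 for Idi1 to 0.15 for Nsdhl, and the median absolute difference over the 37 genes was 0.037, against 0.064 over all genes. For 49 of the 51 probe sets the 95% interval left out a 1.5-fold difference in either direction (96.1%, against 98.6% of all probe sets), the exceptions being Idi1 and a probe set of Scd1. For 36 it also left out a difference of 25% (70.6%, against 75.7%).

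**Figure D1:**
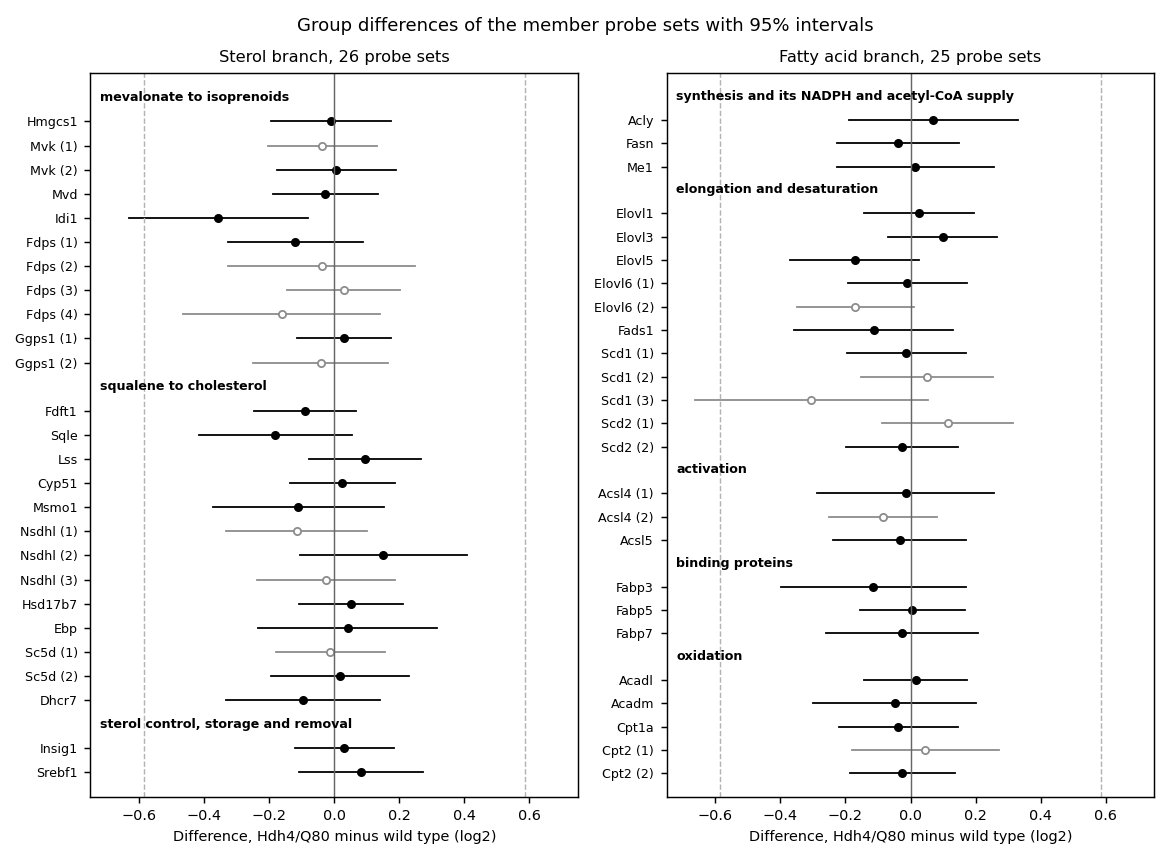
Hdh4/Q80 minus wild-type difference (log2, x axis) for each of the 51 member probe sets, with 95% intervals from limma, in the sterol branch (left) and the fatty acid branch (right). Filled black points mark the brightest probe set of a gene, open grey points its others (numbered), and dashed lines a 1.5-fold difference. The interval of Idi1 alone lies wholly on one side of 0.

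By gene, on the brightest probe set of each, the branches lay on either side of 0 by small amounts. In the sterol branch 8 of 18 genes had a negative difference and 10 a positive one, with a median of 0.012. In the fatty acid branch 13 of 19 were negative and 6 positive, with a median of -0.025. Over all 8251 genes the median was -0.0072 and 53.3% were negative. The fatty acid count rested on single mice. Without Hdh4/Q80 replicate 8, 5 of 19 genes were negative and the median was 0.015, while over all genes 48.6% were negative. Without wild-type replicate 6, 9 of 19 were negative and the median was 0.0010. The sign of the sterol median turned as well, to -0.024 without wild-type replicate 5 and to -0.011 without Hdh4/Q80 replicate 9. The difference between the branches was not tested.

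**Figure D2:**
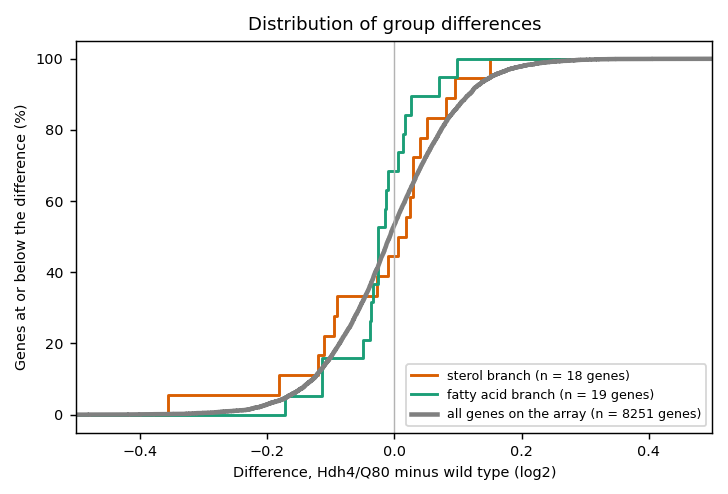
Cumulative share of genes (y axis, %) at or below each group difference (x axis, log2, Hdh4/Q80 minus wild type) for the 18 sterol genes, the 19 fatty acid genes and all 8251 genes, each on its brightest probe set. The curves of both branches cross 50% close to 0, at 0.012 and -0.025, near that of all genes at -0.0072.

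The mevalonate segment turns acetyl-CoA units into the isoprenoid building blocks of sterols, and 6 of its 8 listed genes were measured. Idi1, the isomerase that interconverts the pair of activated isoprene units, read 7.51, 7.02 and 7.49 in the Hdh4/Q80 mice, against 7.69, 7.62 and 7.78 in the wild-type mice. All 3 mutants lay below all 3 wild types, and replicate 8 was by far the lowest mouse. The means were 7.34 ± 0.276 and 7.69 ± 0.0797 (SD, n = 3 mice each), a difference of -0.36 ± 0.123 (SE), or 1.28-fold lower, with a 95% interval of -0.63 to -0.081 (unadjusted p = 0.0163 and adjusted p = 0.857 by limma). Without Hdh4/Q80 replicate 8 the difference was -0.20 (unadjusted p = 0.0205 and adjusted p = 0.998 by limma). Without wild-type replicate 6 it was -0.32 with an unadjusted limma p of 0.0546. Leaving out any other single mouse gave unadjusted limma p-values from 0.00978 to 0.0399.

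The neighbours of Idi1 in the pathway did not share this separation. Hmgcs1, which makes the HMG-CoA from which mevalonate is formed, read 7.76, 7.98 and 7.88 in Hdh4/Q80 mice and 7.92, 7.77 and 7.96 in wild-type mice, a difference of -0.010 (interval -0.20 to 0.18). Here Hdh4/Q80 replicate 8 was the highest of the 6 mice, while it was the lowest for Idi1. Mvk and Mvd, which phosphorylate and decarboxylate mevalonate, had differences of 0.0058 and -0.028. The second Mvk probe set differed by -0.038. Fdps, which joins isoprene units into farnesyl diphosphate, read 8.92, 8.71 and 9.01 in Hdh4/Q80 mice and 8.94, 8.93 and 9.13 in wild-type mice on its brightest probe set, a difference of -0.12 ± 0.0931 (SE) that became -0.038 without Hdh4/Q80 replicate 8 and -0.056 without wild-type replicate 6. A second bright Fdps probe set differed by -0.16 (7.98 in Hdh4/Q80 replicate 8, and 8.39 to 8.61 in the other mice), and a dim pair by -0.039 and 0.029. Both bright Fdps probe sets had their lowest value in Hdh4/Q80 replicate 8, and the groups overlapped on each. Ggps1, which makes the geranylgeranyl group used to anchor small GTPases, read 7.48, 7.44 and 7.43 in Hdh4/Q80 mice and 7.44, 7.40 and 7.42 in wild-type mice. Its difference was 0.029, and its other probe set had the opposite sign (-0.042).

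The promoters of the sterol genes shared letters that the choice of genes did not use. Windows of 250 bases before to 50 after the gene start, from RefSeq on GRCm38.p6, were found for 39 of the 47 genes and searched on both strands. CCAAT, the letters bound by the factor NF-Y, stood in at least 1 window of 19 of the 20 sterol genes with one, and of 11 of 19 fatty acid genes, against 42.3% of 17491 protein-coding genes. By window the counts were 20 of 25 and 12 of 24, against 38.2%. TCACNCCAC, a relaxed form of the sterol regulatory element bound by SREBP, stood in windows of Hmgcs1 and Acsl1. These are 5.13% of the 39 genes, against 1.41% of protein-coding genes. The strict sterol regulatory element, which contains the relaxed one, stood in 0 of 39 (0.08% of protein-coding genes). CACGTG, an E-box that SREBP can also bind, stood in windows of Hsd17b7, Sc5d, Dhcr7, Insig1 and Elovl5, against 8.91% of protein-coding genes. The 150 bases before the start are shown for 4 genes, with these letters in capitals on either strand (CCAAT reads ATTGG on the other). Idi1 is shown for its difference, Hmgcs1 as the only measured member with the relaxed element, Lss as a member with a positive difference, and Insig1 for the E-box.
Idi1 (chr13:8885456-8885605, plus strand): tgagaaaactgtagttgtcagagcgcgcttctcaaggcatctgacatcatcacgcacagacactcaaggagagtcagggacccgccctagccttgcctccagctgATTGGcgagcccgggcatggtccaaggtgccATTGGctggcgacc
Hmgcs1 (chr13:119690201-119690350, plus strand): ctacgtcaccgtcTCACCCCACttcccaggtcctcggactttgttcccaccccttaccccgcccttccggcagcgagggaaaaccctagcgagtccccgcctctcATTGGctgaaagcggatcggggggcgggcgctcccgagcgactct
Lss (chr10:76531455-76531604, plus strand): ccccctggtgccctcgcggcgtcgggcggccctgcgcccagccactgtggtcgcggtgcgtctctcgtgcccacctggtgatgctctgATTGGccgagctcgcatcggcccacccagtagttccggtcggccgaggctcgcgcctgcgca
Insig1 (chr5:28071262-28071411, plus strand): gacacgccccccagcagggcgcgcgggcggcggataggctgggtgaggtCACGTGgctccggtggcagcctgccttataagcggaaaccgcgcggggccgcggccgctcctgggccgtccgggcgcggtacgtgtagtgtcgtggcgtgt
Idi1 has 2 CCAAT matches in this stretch, Hmgcs1 and Lss 1 each and Insig1 0, its CCAAT lying farther upstream. All 15 measured sterol genes with a window held CCAAT, and their differences covered the whole range of the branch, with Idi1 at one end (-0.36) and Nsdhl at the other (0.15). A match is a description of letters and not a shown binding site.

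From squalene to cholesterol all 10 listed genes were measured, and 0 had an unadjusted p under 0.05 in limma's test. Sqle, the squalene epoxidase and a rate-limiting step of the late pathway, read 8.43, 8.16 and 8.47 in Hdh4/Q80 mice and 8.45, 8.44 and 8.72 in wild-type mice. Replicates 7 and 9 of the mutants lay level with wild-type replicates 4 and 5, and the groups parted at 1 low mutant and 1 high wild type, for a difference of -0.18 ± 0.106 (SE, interval -0.42 to 0.054). It was -0.087 without Hdh4/Q80 replicate 8 and -0.090 without wild-type replicate 6. Fdft1, the squalene synthase, read 8.90, 8.85 and 8.84 in Hdh4/Q80 mice, against 8.92, 8.90 and 9.04 in wild-type mice. The groups overlapped narrowly, through Hdh4/Q80 replicate 7 and wild-type replicate 5, and the difference was -0.090 ± 0.0704 (SE). Nsdhl, which removes methyl groups from the sterol ring, read 7.92, 8.24 and 7.74 in Hdh4/Q80 mice and 7.77, 7.85 and 7.83 in wild-type mice on its brightest probe set, a difference of 0.15 ± 0.115 (SE). That value rested on Hdh4/Q80 mice, since it was 0.012 without replicate 8 and 0.27 without replicate 9 (unadjusted p = 0.0277 and adjusted p = 0.5 by limma), and it was 0.0029 with the Nsdhl probe sets averaged. The mutants held both the highest and the lowest mouse for that probe set, and the other Nsdhl probe sets differed by -0.12 and -0.025. In Hdh4/Q80 replicate 8 the brightest one was the highest of 6 mice (8.24) and the _g_at one the lowest (7.34), so probe sets of the same gene went opposite ways in that mouse.

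The remaining late enzymes lay between -0.11 and 0.095. Msmo1, the methyl sterol oxidase, had 7.61, 7.24 and 7.68 in Hdh4/Q80 mice and 7.68, 7.47 and 7.71 in wild-type mice, a difference of -0.11 (interval -0.37 to 0.15). Dhcr7, the last reductase of one route to cholesterol, had 6.15, 5.80 and 6.16 in Hdh4/Q80 mice and 6.06, 6.07 and 6.25 in wild-type mice, a difference of -0.096. In both genes Hdh4/Q80 replicate 8 was again the lowest mouse and the other mutants fell within the wild-type range. Lss, which closes the ring to lanosterol, had 7.56, 7.73 and 7.60 in Hdh4/Q80 mice and 7.55, 7.45 and 7.61 in wild-type mice, a difference of 0.095 (interval -0.078 to 0.27), with replicate 8 the highest mouse. Cyp51, the lanosterol demethylase, differed by 0.025, Hsd17b7, a sterol ketoreductase, by 0.052 and Ebp, the sterol isomerase, by 0.041. Sc5d, the sterol desaturase, was dim on both probe sets, which differed by 0.018 and -0.012.

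Only Srebf1 and Insig1 were measured among the genes that control, store or remove sterols. Srebf1 read 9.59, 9.37 and 9.66 in Hdh4/Q80 mice, against 9.49, 9.41 and 9.47 in wild-type mice. Replicates 7 and 9 lay above all wild types and replicate 8 below them. The difference was 0.081 ± 0.0854 (SE, interval -0.11 to 0.27), and without Hdh4/Q80 replicate 8 it was 0.17 (unadjusted p = 0.0333 and adjusted p = 0.998 by limma). Insig1, a direct target of SREBP that closes the feedback loop, was dim at 4.19, 4.16 and 4.25 in Hdh4/Q80 mice and 4.19, 4.11 and 4.21 in wild-type mice. Its difference was 0.030 (interval -0.12 to 0.18), a weak limit at that level.

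**Figure D3:**
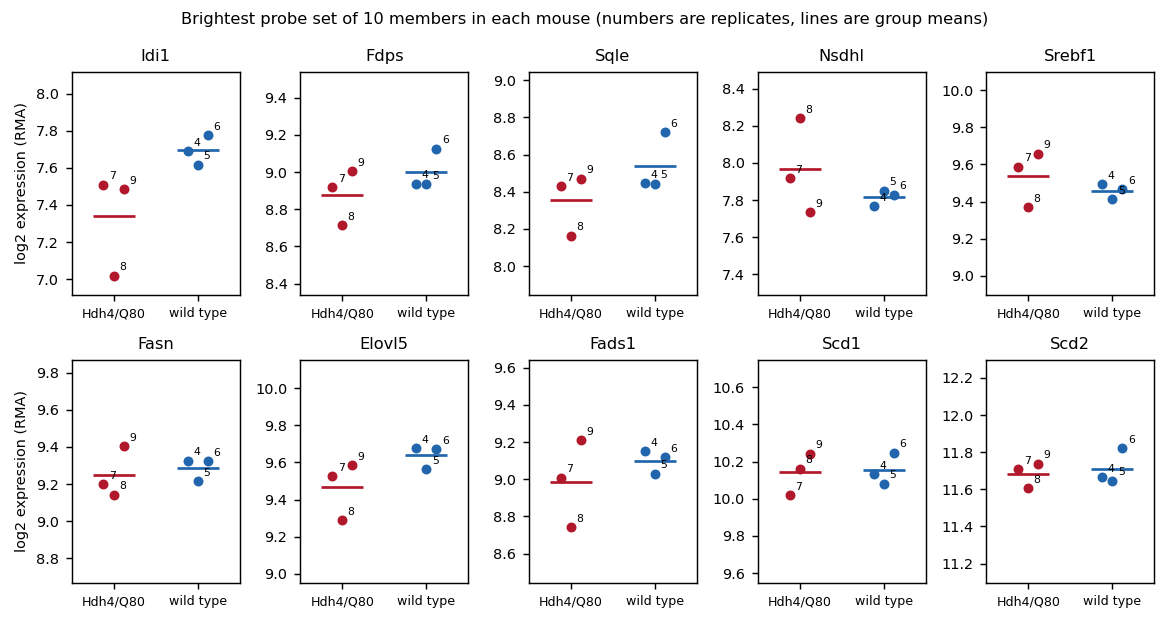
Log2 expression (y axis, each panel spanning 1.2 units) of 10 members on their brightest probe set, with 1 point per mouse labelled by replicate and lines at the group means, Hdh4/Q80 left and wild type right. The groups are apart only for Idi1, and Hdh4/Q80 replicate 8 is the lowest mouse for Idi1, Fdps, Sqle, Srebf1, Fasn, Elovl5, Fads1 and Scd2.

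In the fatty acid branch, 3 of the 4 genes that make palmitate or supply its precursors were measured, and their differences lay close to 0. Acly, which releases acetyl-CoA from citrate, read 9.82, 9.74 and 10.18 in Hdh4/Q80 mice and 9.96, 9.84 and 9.73 in wild-type mice, a difference of 0.071 ± 0.116 (SE). Fasn, the fatty acid synthase, read 9.20, 9.14 and 9.40 in Hdh4/Q80 mice and 9.33, 9.21 and 9.32 in wild-type mice, a difference of -0.038 ± 0.0844 (SE, interval -0.23 to 0.15). Me1, the malic enzyme that yields NADPH, read 6.91, 6.74 and 7.14 in Hdh4/Q80 mice and 6.97, 6.77 and 7.01 in wild-type mice, a difference of 0.014 ± 0.108 (SE). All of them had their highest value in Hdh4/Q80 replicate 9, and Fasn and Me1 had their lowest in replicate 8, so the spread among the mutants was wider than that among the wild types.

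Among the genes that lengthen and desaturate fatty acids, 7 of 8 were measured and 0 had an unadjusted p under 0.05 in limma's test. Elovl5, which elongates polyunsaturated chains, read 9.52, 9.29 and 9.59 in Hdh4/Q80 mice and 9.68, 9.56 and 9.67 in wild-type mice. The groups overlapped through Hdh4/Q80 replicate 9 and wild-type replicate 5, and the difference was -0.17 ± 0.0890 (SE, interval -0.37 to 0.027). It was -0.083 without Hdh4/Q80 replicate 8 and -0.23 without replicate 9 (unadjusted p = 0.0311 and adjusted p = 0.5 by limma). Fads1, the desaturase that acts on such chains, read 9.01, 8.74 and 9.21 in Hdh4/Q80 mice and 9.15, 9.03 and 9.12 in wild-type mice, a difference of -0.11 ± 0.110 (SE). Without Hdh4/Q80 replicate 8 it was 0.0091, and without replicate 9 it was -0.23 (unadjusted p = 0.0409 and adjusted p = 0.5 by limma). Elovl6, which extends palmitate, gave -0.0093 on its brighter probe set and -0.17 (interval -0.35 to 0.0094) on the other, where only wild-type replicate 5 fell among the mutants. Elovl1, which makes very long saturated chains, differed by 0.027. Elovl3 was dim at 5.40, 5.46 and 5.47 in Hdh4/Q80 mice and 5.46, 5.31 and 5.26 in wild-type mice, a difference of 0.099.

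Scd1 and Scd2 introduce the first double bond into saturated fatty acids, and Scd2 is known as the main form in brain. Scd2 read 11.71, 11.61 and 11.74 in Hdh4/Q80 mice and 11.66, 11.65 and 11.82 in wild-type mice, a difference of -0.026 ± 0.0767 (SE, interval -0.20 to 0.15), and its _f_at probe set differed by 0.11. Scd1 read 10.02, 10.16 and 10.24 in Hdh4/Q80 mice and 10.13, 10.08 and 10.25 in wild-type mice, a difference of -0.013 ± 0.0821 (SE). The other Scd1 probe sets differed by 0.050 and by -0.30 (interval -0.66 to 0.053). The dimmer of them read 7.22, 6.56 and 7.26 in Hdh4/Q80 mice and 7.30, 7.26 and 7.40 in wild-type mice, with replicate 8 far below the other mice. These paralogs are close in sequence, and probe sets with such suffixes (_f_at, _g_at, _r_at) may pick up similar transcripts. Their values therefore cannot be assigned to 1 gene with certainty. In all, 12 member probe sets bear a suffix _f_at, _g_at, _i_at or _r_at. The brightest probe sets of Fdps, Mvk, Ggps1 and Sc5d are among them. The limit thus reaches these sterol genes, and the sterol counts and medians that include them.

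Genes that activate, bind or burn fatty acids also gave small differences. Of 5 listed acyl-CoA synthetases, which activate fatty acids, 2 were measured. Acsl4, which prefers arachidonate, read 6.13, 6.55 and 6.36 in Hdh4/Q80 mice and 6.47, 6.14 and 6.47 in wild-type mice, a difference of -0.015 (-0.084 on a dim probe set), and Acsl5 differed by -0.034 ± 0.0913 (SE). The mutants lay close together for Acsl5 (6.01 to 6.05), while the wild types spanned 5.89 to 6.24. Of the fatty acid binding proteins, Fabp3, the heart-type form also found in neurons, read 7.33, 6.84 and 7.29 in Hdh4/Q80 mice and 7.31, 7.12 and 7.36 in wild-type mice, a difference of -0.11 ± 0.128 (SE) that became 0.043 without Hdh4/Q80 replicate 8. Fabp7, the form of radial glia and astrocytes, differed by -0.026 (7.28, 6.98 and 7.32 in Hdh4/Q80 mice, against 7.36, 7.18 and 7.11 in wild-type mice). Fabp5, the epidermal-type form, differed by 0.0061 and ran from 9.04 to 9.19 over all 6 mice. In both Fabp3 and Fabp7 the lowest mouse was Hdh4/Q80 replicate 8, and the other mutants lay within or close to the wild-type range.

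All 4 genes of mitochondrial fatty acid oxidation were measured, and each interval left out a difference of 25%. Cpt1a, the transferase that admits fatty acids to mitochondria, read 8.02, 7.97 and 8.23 in Hdh4/Q80 mice and 8.16, 8.08 and 8.10 in wild-type mice, a difference of -0.037 (interval -0.22 to 0.15). Its partner on the inner membrane, Cpt2, read 7.74, 7.57 and 7.69 in Hdh4/Q80 mice and 7.67, 7.70 and 7.71 in wild-type mice, a difference of -0.025, with 0.045 on a dim probe set. Acadm, the medium-chain dehydrogenase, read 8.21, 7.99 and 8.46 in Hdh4/Q80 mice and 8.38, 8.21 and 8.21 in wild-type mice, a difference of -0.049. Acadl, the long-chain dehydrogenase, differed by 0.017. In all 4 genes, on the brightest probe set, the mutants held both the highest and the lowest mouse.

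Single mice stood out across many members. Hdh4/Q80 replicate 8 was the lowest of 6 mice for 7 of 18 sterol genes (38.9%) and 10 of 19 fatty acid genes (52.6%), against 36.0% of all genes. Wild-type replicate 5 was the lowest for another 6 sterol genes (33.3%, against 11.7% of all genes), and wild-type replicate 6 was the highest for 7 (38.9%, against 14.5%). The mean deviation of the sterol genes from their 6-mouse mean was 0.0031, -0.076 and 0.034 in the Hdh4/Q80 mice, against 0.015, -0.051 and 0.075 in the wild-type mice. For the fatty acid genes it was -0.017, -0.096 and 0.078 in the Hdh4/Q80 mice and 0.064, -0.059 and 0.029 in the wild-type mice. Each group thus held a mouse low and a mouse high for both branches, and the groups overlapped. Idi1, Sqle, Msmo1, Dhcr7, Fdps, Elovl5, Fads1, Fabp3, Fabp7 and Acadm were low together in Hdh4/Q80 replicate 8, while Nsdhl, Lss, Hmgcs1, Mvk, Acsl4 and Acadl were highest there.

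**Figure D4:**
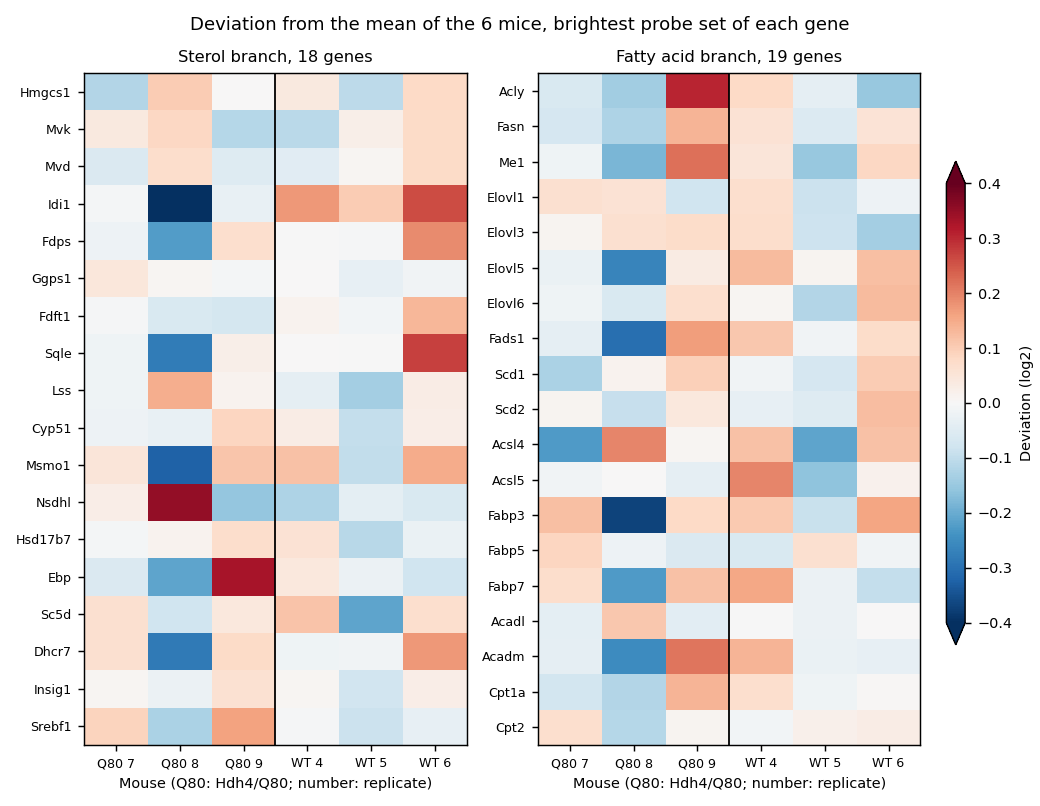
Deviation of each gene from its mean over the 6 mice (colour, log2, values beyond 0.4 shown at the end colour) for the 18 sterol genes (left) and 19 fatty acid genes (right), one column per mouse with Hdh4/Q80 left of the black line and wild type right. The darkest blue cells stand in Hdh4/Q80 replicate 8, that of Idi1 first, and dark red cells in both Hdh4/Q80 replicate 8 (Nsdhl) and replicate 9 (Ebp, Acly).

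A second list of 55 genes around both pathways gave 36 measured genes. Of these, 27 had a negative difference (75%, against 53.3% of all genes), with a median of -0.061, against -0.0072 over all genes. In 17 of the 36 (47.2%, against 36.0% of all genes) the lowest value came from Hdh4/Q80 replicate 8. Mean deviations over the list were -0.0017, -0.098 and 0.019 in the Hdh4/Q80 mice and 0.044, 0.013 and 0.024 in the wild-type mice. In limma's test 0 of the 36 passed after adjustment and 2 had an unadjusted p under 0.05. Both were lower (5.56% of the list, against 176 of all 8251 genes and 2.21% of all probe sets). The groups did not overlap for 4, which is 11.1% of the list, against 11.1% of all genes in either direction. All 4 were lower in Hdh4/Q80, while over all genes 431 of 8251 were lower without overlap (5.05% by probe set). They were Thrsp, Acaa1a, the phosphatidate phosphatase Lpin1 and the sterol exporter Abcg1. Thrsp, a nuclear protein tied to lipid synthesis, read 7.32, 7.24 and 7.19 in Hdh4/Q80 mice and 7.56, 7.33 and 7.54 in wild-type mice, a difference of -0.23 ± 0.0824 (SE). The 3 mutants lay below the 3 wild types by a small margin. Acaa1a, a peroxisomal thiolase of fatty acid oxidation, read 8.21, 7.90 and 8.27 in Hdh4/Q80 mice and 8.42, 8.31 and 8.34 in wild-type mice, a difference of -0.23 ± 0.0996 (SE). Abca1, which exports cholesterol to lipoproteins, had a difference of 0.19 and Apoe, the main lipid carrier of the brain, one of -0.13.

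Markers of glia, blood and cortical neurons were set beside these values. Of 9 measured oligodendrocyte and myelin markers (12 listed) 7 had a negative difference. Their summed log2 level ran from 81.6 to 82.4 in Hdh4/Q80 mice and from 82.5 to 83.3 in wild-type mice, without overlap. The groups did not overlap for Mobp and Mal (22.2% of the 9, against 11.1% of all genes in either direction). Both were lower in Hdh4/Q80, as were 431 of all 8251 genes without overlap. Without Mobp and Mal, left out after their values were seen, the sums of the other 7 overlapped. They ran from 60.6 to 61.7 in Hdh4/Q80 mice and from 61.2 to 61.8 in wild-type mice. Leaving out the genes that part the groups favours such overlap, so it does not show how widely the markers differ. Mbp differed by 0.0077, while Mobp and Mal, also myelin genes, differed by -0.31 and -0.23, and 0 of the 9 passed the adjusted test. Of 7 measured astrocyte markers (8 listed) 5 were negative, with sums of 63.6 to 65.1 in Hdh4/Q80 mice and 64.7 to 65.1 in wild-type mice. The groups did not overlap for S100b and Glul (28.6% of the 7), which went opposite ways. S100b was lower in Hdh4/Q80 (-0.19) and Glul higher (0.20), and 0 of the 7 passed the adjusted test. All 7 microglial markers were negative, with sums of 58.4 to 60.0 in Hdh4/Q80 mice and 60.5 to 61.1 in wild-type mice. The groups did not overlap for C1qa, C1qb, C1qc and Tyrobp (57.1% of the 7, against 11.1% of all genes in either direction). All 4 were lower in Hdh4/Q80, as were 431 of all 8251 genes without overlap. The 4 differed by -0.28, -0.35, -0.32 and -0.21, and 0 of the 7 passed the adjusted test. Without these 4, the sums of the other 3 overlapped narrowly, at 23.35 to 23.57 in Hdh4/Q80 mice and 23.55 to 23.68 in wild-type mice. The limit given for the myelin sums holds for this overlap as well. Hdh4/Q80 replicate 8, the lowest mouse for Idi1 and for most of the fatty acid genes, was also the lowest for the microglial and astrocyte sums, while for the myelin sum replicate 9 was the lowest. Of 4 listed blood genes 2 were measured, and their sums ran from 19.2 to 19.4 in Hdh4/Q80 mice and from 19.5 to 19.9 in wild-type mice. Hba-a1, a haemoglobin chain of red cells, had 11.32, 11.15 and 11.17 in Hdh4/Q80 mice and 11.77, 11.63 and 11.52 in wild-type mice, a difference of -0.43 (unadjusted p = 0.000543 and adjusted p = 0.857 by limma), while Alas2 differed by -0.014. For Hba-a1, as for Idi1, all mutants lay below all wild types. Of 4 listed cortical neuron markers 2 were measured, Tbr1 and the dim Neurod6, with differences of -0.38 and 0.12. Tbr1 had 6.96, 5.95 and 6.92 in Hdh4/Q80 mice and 6.83, 6.10 and 8.04 in wild-type mice. It was thus lowest in Hdh4/Q80 replicate 8 and wild-type replicate 5 and highest in wild-type replicate 6, as was the mean deviation of the sterol genes. The part of any of these markers in the values of the lipid genes was not tested.

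**Figure D5:**
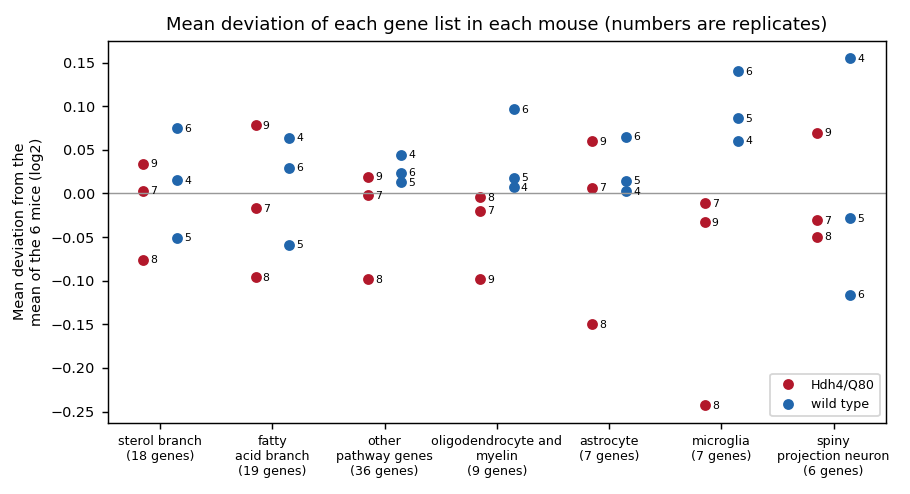
Mean deviation from the mean of the 6 mice (y axis, log2) of the genes of each list, with 1 point per mouse labelled by replicate, Hdh4/Q80 left and wild type right within each list. The groups overlap for the sterol and fatty acid branches, with Hdh4/Q80 replicate 8 at -0.076 and -0.096, and do not overlap for the myelin and microglial markers.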

How the data were processed

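Total RNA of 6 striata was labelled with biotin and hybridised to Affymetrix arrays (1 for each mouse), according to the labels' protocols. The authors deposited log2 values for each probe set, for which the submitters' processing notes name RMA and affy. Their versions, and the set of arrays normalized jointly, are not stated. RMA equalises the arrays and compresses differences of dim and very bright probe sets. The table held 12488 rows, of which 66 control probe sets were left out, and 0 values were missing. Depth does not apply to arrays, and their number limits the precision. Groups and replicate numbers came from the sample titles.

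Probe sets were named only where the platform annotation gives 1 symbol (10833, with 396 naming several genes and 1193 none). All 37 measured members were found by symbol in the reference gene table. A gene with several probe sets was represented by its brightest, by the mean over the 6 arrays. The comparison used lmFit and eBayes of limma (version 3.58.1, R 4.3.3), where the residual degrees of freedom were 4 and the prior ones 5.81. P-values were adjusted over 12422 probe sets by the Benjamini-Hochberg method. The fit was also run on simulated data, whose outcome is not given here, so that run does not vouch for the values above. Branches were described by counts and medians. Single-mouse values were given for up to 3 genes of smallest p per role group, genes without overlap at an unadjusted p under 0.05 and a fixed panel. Ttr, Tbr1, Mobp, Mal, S100b, Glul, C1qa, C1qb, C1qc, Tyrobp, Hba-a1, Hmgcs1, Msmo1, Dhcr7 and Lss fall outside that rule and were chosen after the values were seen. So were the second probe set of Elovl6 and the stretches of promoter. Members and lists were chosen with earlier results of these data known. Alternatives were a filter on dim probe sets, scalings, moderation, array weights, averaging the probe sets of each gene and leaving out each mouse. Summing marker lists without genes of non-overlapping groups was added after seeing the data.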

Additional observations from a re-analysis of the deposited data

How the results depend on the processing

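No paired analysis was possible because the groups share no replicate numbers. In every setting tried 0 member probe sets and 0 of all probe sets passed at an adjusted p under 0.05. At an unadjusted p under 0.05 the count over all probe sets was 634, against 338 without the dimmest 40% of probe sets, where fewer were tested, 1812 with array weights and 251 to 1153 with 1 mouse left out (the lowest without wild-type replicate 6, the highest without Hdh4/Q80 replicate 9). Of these calls 56.8% were higher in Hdh4/Q80, against 42% without the dimmest 40%. Among member probe sets the count was 1 (Idi1), against 7 with array weights and 0 to 5 with 1 mouse left out (the same mice). Among the 24 genes of the rule it was 1, against 5 with array weights and 0 to 4 with 1 mouse left out. The array weights gave Hdh4/Q80 replicate 7 a weight of 6.18, against 0.228 and 0.405 for replicates 8 and 9.

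The sterol median moved within -0.024 to 0.029 and the fatty acid median within -0.063 to 0.015 with 1 mouse left out, less than the spread between mice. The sterol median was also slightly negative without the dimmest 40% (-0.010), with array weights (-0.0033) and with averaged probe sets (-0.0084). Idi1 kept its sign throughout, between -0.44 and -0.20. Other signs turned, among them those of Fads1 and Fabp3, which were not among the smallest differences. With array weights Acsl4 was -0.215 (unadjusted p = 0.0259) and Scd1 -0.135 (unadjusted p = 0.041, both limma's), and Me1 was -0.012, Fabp3 0.029, Fabp7 0.083 and Cpt2 0.039. After quantile normalization Scd1 was 0.028 and Scd2 0.033, and after cyclic loess they were 0.038 and 0.043 and Fasn 0.0012. When probe sets were averaged within genes, Ggps1 was -0.0064, Scd2 0.044 and Cpt2 0.0099. With 1 mouse left out the ranges across 0 were -0.0014 to 0.050 (Insig1), -0.064 to 0.16 (Acly), -0.12 to 0.015 (Fasn), -0.092 to 0.11 (Me1), -0.23 to 0.0091 (Fads1), -0.063 to 0.048 (Scd1), -0.058 to 0.029 (Scd2), -0.12 to 0.094 (Acsl4), -0.12 to 0.055 (Acsl5), -0.20 to 0.043 (Fabp3), -0.035 to 0.040 (Fabp5), -0.091 to 0.082 (Fabp7), -0.17 to 0.065 (Acadm), -0.12 to 0.012 (Cpt1a) and -0.065 to 0.025 (Cpt2). The cause was not tested.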
